A study of Chlamydomonas reinhardtii with 42 samples.

Results

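LHCBM1 to LHCBM9 are the 9 genes of Chlamydomonas reinhardtii that encode the major light-harvesting proteins of photosystem II. They were taken by identifier from a table of 17741 genes, of which 13886, all 9 LHCBM genes among them, had enough counts to be tested. The identifiers were Cre01.g066917 (LHCBM1), Cre12.g548400 (LHCBM2), Cre04.g232104 (LHCBM3), Cre06.g283950 (LHCBM4), Cre03.g156900 (LHCBM5), Cre06.g285250 (LHCBM6), Cre12.g548950 (LHCBM7), Cre06.g284250 (LHCBM8) and Cre06.g284200 (LHCBM9).

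LHCBM proteins bind chlorophyll a and b, assemble into trimers in the thylakoid membrane and pass absorbed light energy mainly to photosystem II, and part of this antenna can move to photosystem I in state transitions. They are grouped by sequence into type I (LHCBM3, LHCBM4, LHCBM6, LHCBM8 and LHCBM9), type II (LHCBM5), type III (LHCBM2 and LHCBM7) and type IV (LHCBM1). Algae are known to keep a smaller antenna in strong light, and LHCBM1 is known for its part in non-photochemical quenching, the release of excess light energy as heat.

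RNA was sequenced from 42 libraries of the wild-type strain CC-125 in 14 conditions of 3 replicates. All cultures had been grown in an acetate-containing medium (TAP) and were moved to Sueoka's high salt medium (HSM), which holds no acetate, in low light at 5 µmol photons per m2 and s (LL). Acetate (20 mM) was given to part of the culture at time 0, and these samples are called acetate below, the others HSM. In each medium LL samples were taken at 15, 240 and 1440 min, and samples in high light (HL) of 300 µmol photons per m2 and s after 15 and 60 min of HL that began at 240 min (day 1, sampled at 255 and 300 min) or at 1440 min (day 2, sampled at 1455 and 1500 min).

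Every HL condition was set against the LL samples taken just before the shift, so the light and the 15 or 60 min that passed cannot be told apart, nor can day 2 and the greater age of the culture. The study's methods describe the replicates as biological, and p-values measure the spread between them.

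Total counts were 19232757 to 34098899 per library, and the TMM factors, which correct for differences in the make-up of the libraries, ran over 0.454 to 1.57. LHCBM8 had at least 102 counts and LHCBM9 at least 62 in every library, and the other members more. Replicate 2 of HSM stood apart on day 2 as the lowest of the 3 replicates for every member, in LL at 1440 min and after 15 and 60 min of HL. In LL at 1440 min, for example, LHCBM8 had 48.3, 9.2 and 37.5 CPM (counts scaled by library size and TMM) in HSM replicates 1, 2 and 3. Results that use day 2 HSM libraries are therefore given without this replicate too where it changed a call. Without it in all 3 conditions, an alternative added after its values were seen, the number of members called was 8 in place of 6 for the difference between media after 60 min of HL, 8 in place of 4 for 1440 against 240 min in HSM and 1 in place of 0 for 15 min of HL in HSM. The title tags number this replicate 3 in LL at 1440 min and after 60 min of HL, but 2 after 15 min. It therefore need not be 1 culture throughout. These tag numbers are called culture numbers below.

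The annotation placed LHCBM4, LHCBM9, LHCBM8 and LHCBM6 in that order on chromosome 6, with LHCBM8 and LHCBM9 as direct neighbours, LHCBM7 and LHCBM2 on chromosome 12, and LHCBM1, LHCBM3 and LHCBM5 on chromosomes 1, 4 and 3. LHCBM2 with LHCBM7, and LHCBM4 with LHCBM6 and LHCBM8, are so similar in sequence that reads may have been split between them or lost, and how such reads were counted is not given in the sources used here. The level of any one of these 5 genes is therefore uncertain, and the 2 sums were tested as well.

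**Figure D1:**
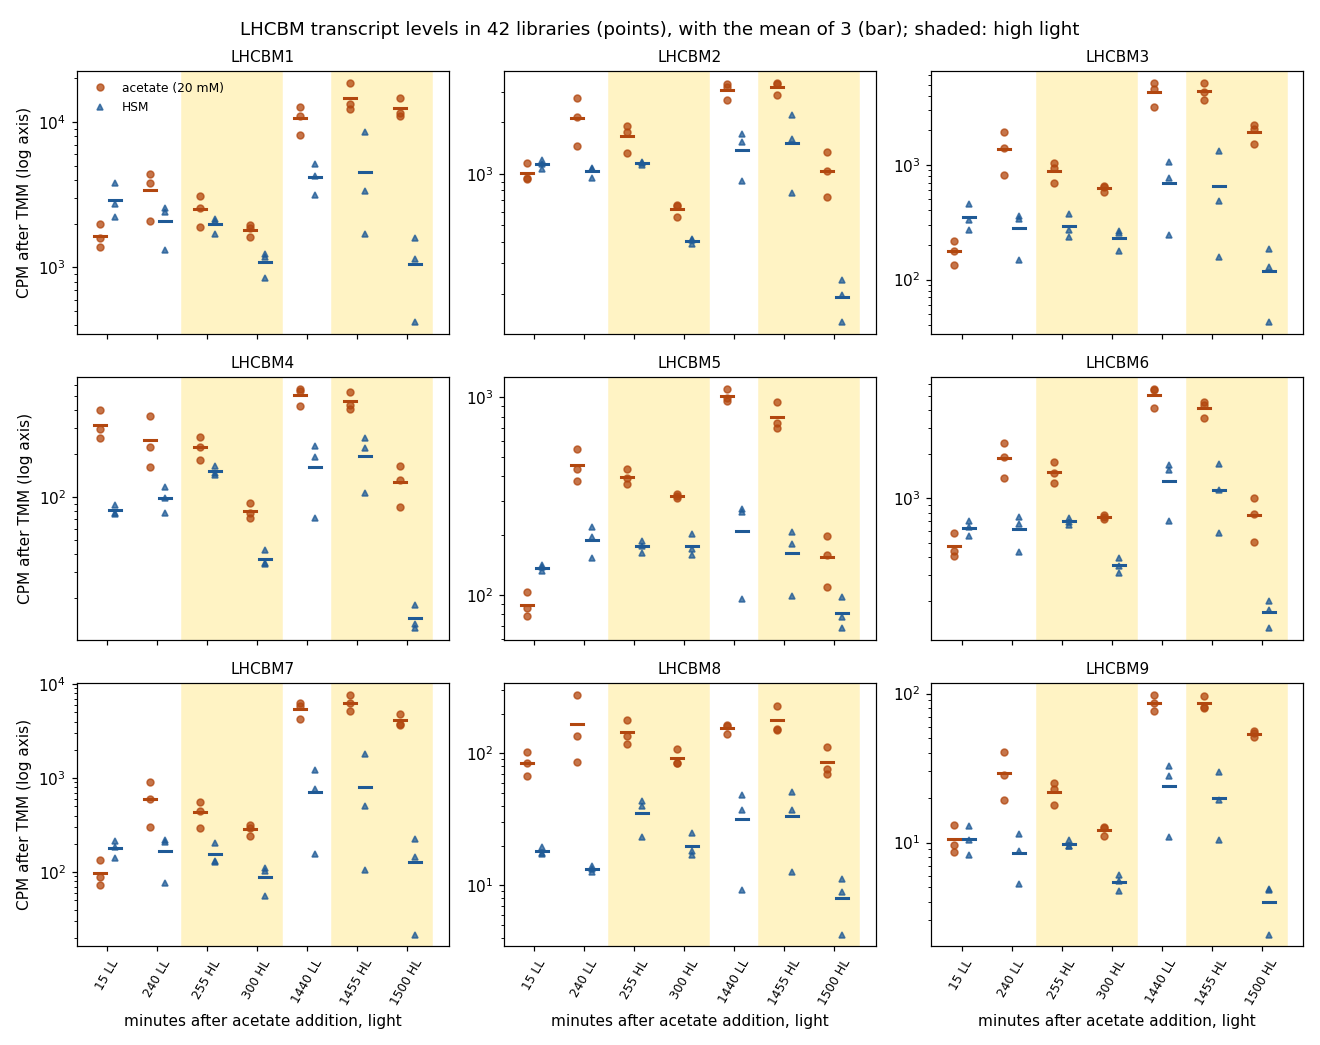
Transcript levels of the 9 LHCBM genes in all 42 libraries, as CPM after TMM on a log axis, against the minutes since acetate addition. Circles are acetate libraries, triangles HSM libraries, short lines the mean of 3 replicates, and shading marks HL. From 1440 min on, the acetate libraries lay above the HSM libraries of the same time for each of these 9 genes. How many of all genes did so was not counted.

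In LL most LHCBM transcripts were higher with acetate at 240 and 1440 min, but not at 15 min. After 15 min LHCBM4 was 3.91-fold and LHCBM8 4.68-fold higher with acetate than in HSM and LHCBM5 was lower, while 34.7% of all genes tested were called higher and 39.3% lower, so these calls were no more than the background. The other 6 members did not pass the test, and the median log2 difference over the 9 was -0.42, against -0.12 over all genes. At 240 min 8 of 9 members were higher with acetate, and at 1440 min all 9 were.

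The levels of LHCBM4 and LHCBM8 at 15 min are given with the limit that their sum with LHCBM6 did not differ detectably between media (log2 0.26 ± 0.29, standard error, as in all log2 values below; edgeR's quasi-likelihood test, adjusted p = 0.419). How reads were shared out among these 3 genes was not tested. LHCBM4, a type I protein, had 399, 295 and 257 CPM in acetate libraries at 15 min, against 76.8, 88.4 and 77.9 CPM in HSM libraries, a log2 fold change of 1.97 ± 0.31 (adjusted p = 5.67e-07). LHCBM8, also type I, had 102, 67.9 and 84.5 CPM with acetate, against 17.4, 19.4 and 17.6 CPM in HSM (log2 2.23 ± 0.42, adjusted p = 1.22e-05). For both genes the lowest acetate library lay above the highest HSM library.

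LHCBM5, the type II protein known for its association with photosystem I in state transitions, had 103, 78.3 and 86.4 CPM with acetate at 15 min, against 132, 139 and 142 CPM in HSM (log2 -0.63 ± 0.25, adjusted p = 0.0244). Its groups did not overlap either, but the call was lost without acetate replicate 2 (adjusted p = 0.0894) or replicate 3 (0.0608). LHCBM1 (log2 -0.83 ± 0.39, adjusted p = 0.0527) and LHCBM3 (-0.996 ± 0.48, 0.0598) were just outside the threshold and passed it, as lower, without HSM replicate 1 (adjusted p = 0.0301 for LHCBM1 and 0.0431 for LHCBM3), as did LHCBM1 without acetate replicate 1 (0.0499).

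At 240 min in LL the higher members were all but LHCBM1, against 32.9% of all genes, and the median log2 difference was 1.62 over the members and 0.027 over all genes. LHCBM8 differed most, with 275, 136 and 85.6 CPM in acetate libraries, against 14.1, 13.37 and 12.7 CPM in HSM libraries (log2 3.63 ± 0.44, adjusted p = 6.45e-09). LHCBM3, a type I protein of the trimers, had 1912, 1406 and 816 CPM with acetate, against 148, 335 and 356 CPM in HSM (log2 2.3 ± 0.50, adjusted p = 0.000133). Acetate replicate 3 was the lowest acetate library for both, yet it stayed above every HSM library.

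LHCBM1 had 4422, 3797 and 2090 CPM with acetate at 240 min, against 1316, 2586 and 2400 CPM in HSM, and these groups overlapped (log2 0.71 ± 0.39, adjusted p = 0.105). It passed the threshold without acetate replicate 3 (log2 0.97, adjusted p = 0.0422). LHCBM7 was called higher (log2 1.84 ± 0.64, adjusted p = 0.0124), but not without HSM replicate 1 or acetate replicate 1 (adjusted p = 0.0702 each).

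At 1440 min in LL all 9 members were higher with acetate, against 31.1% of all genes, with log2 differences of 1.15 (LHCBM2) to 2.95 (LHCBM7). LHCBM7, a type III protein, had 4269, 6342 and 5826 CPM in acetate libraries, against 1214, 155 and 762 CPM in HSM libraries (log2 2.95 ± 0.67, adjusted p = 0.000242). LHCBM2, whose mature protein is nearly the same as that of LHCBM7, had 2675, 3339 and 3191 CPM with acetate, against 1693, 910 and 1536 CPM in HSM (log2 1.15 ± 0.26, adjusted p = 0.000205). No acetate library overlapped an HSM library for any of the 9 genes, but the share of all genes without such overlap was not computed. All 9 calls held without HSM replicate 2.

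Within the acetate cultures most of the family rose with time in LL. At 240 against 15 min 8 members were higher (32.4% of all genes were), and at 1440 against 240 min 7 were (23.3% of all genes). Since RNA came from whole cultures, more RNA in every cell and more cells with a high level cannot be told apart. LHCBM7 had 133, 88.3 and 73.1 CPM at 15 min, 901, 604 and 303 CPM at 240 min, and 4269, 6342 and 5826 CPM at 1440 min, with no overlap between the times (log2 2.62 ± 0.66 and 3.18 ± 0.67, adjusted p = 0.000737 and 0.000166).

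LHCBM5, below HSM at 15 min, had 103, 78.3 and 86.4 CPM at 15 min, 550, 436 and 377 CPM at 240 min and 959, 987 and 1102 CPM at 1440 min with acetate (log2 2.35 ± 0.26 and 1.16 ± 0.25, adjusted p = 1.01e-09 and 0.000211). LHCBM4, by contrast, was already high at 15 min and did not differ detectably at 240 min (364, 222 and 161 CPM, log2 -0.35 ± 0.29, adjusted p = 0.298), although it passed the test as lower without 240 min replicate 1 (0.0452). It was then higher at 1440 min, with 428, 562 and 546 CPM (log2 1.04 ± 0.30, adjusted p = 0.00365).

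LHCBM8 was higher at 240 than at 15 min (log2 0.96 ± 0.39, adjusted p = 0.0302) and gave no detectable difference after that (141, 161 and 163 CPM at 1440 min, log2 -0.10 ± 0.39, adjusted p = 0.852). Its call at 240 min was lost without acetate replicate 2 or 3 of the 15 min samples (adjusted p = 0.109 and 0.0656) or replicate 1 of the 240 min samples (0.418). LHCBM1 also lost its call for 240 against 15 min without replicate 3 at 15 min (adjusted p = 0.064) or replicate 1 at 240 min (0.0838). LHCBM2 did not pass at 1440 against 240 min (log2 0.54 ± 0.25, adjusted p = 0.0745) and did without replicate 1 at 240 min (0.025).

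In HSM no member passed edgeR's test at 240 against 15 min, where 4.2% of all genes did in either direction (0 members at an unadjusted p under 0.05, and 0 by DESeq2 or limma-voom). At 1440 against 240 min LHCBM6, LHCBM7, LHCBM8 and LHCBM9 were higher, against 12.6% of all genes. These calls were not firm. None of the 4 passed in the fit of only the libraries compared (adjusted p = 0.0518 to 0.138), limma-voom called LHCBM6 and LHCBM9, and scaling by library size alone called LHCBM7 and LHCBM9. Over all genes 1753 were called higher in edgeR's fit of all libraries, and 638, 1683 and 392 in these alternatives, in that order. DESeq2 called LHCBM1 (adjusted p = 0.0464) and LHCBM3 (0.0282) as higher as well, and scaling by RLE in place of TMM added LHCBM3 (0.0474). The sum of LHCBM2 and LHCBM7 did not pass the test (log2 0.80 ± 0.34, adjusted p = 0.0936), against 2.07 for LHCBM7 on its own, and that of LHCBM4, LHCBM6 and LHCBM8 was higher (1.06 ± 0.29, 0.00811). LHCBM9, which is best known from nutrient-starved cells, had 28, 10.9 and 32.8 CPM at 1440 min, against 5.26, 8.8 and 11.4 CPM at 240 min (log2 1.51 ± 0.31, adjusted p = 0.000508). Replicate 2 at 1440 min was within the range of the 240 min samples for LHCBM9. Without it in the 3 day 2 conditions 8 members passed the test. LHCBM7 lost its call without replicate 1 at 240 or at 1440 min (adjusted p = 0.0931 and 0.134), and LHCBM8 without any 240 min replicate or 1440 min replicate 1 or 3 (0.0533 to 0.203).

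In high light a single LHCBM change was called after 15 min, whereas 4 to 9 members were lower after 60 min. After 15 min of HL no member was called in acetate on day 1, in acetate on day 2 or in HSM on day 2, while 58.6%, 67.7% and 71.2% of all genes were called in either direction in these comparisons. The members numbered 0 at an unadjusted p under 0.05 too, and 0 by DESeq2 and limma-voom. On day 2 in HSM, LHCBM5 passed as lower without LL replicate 2 (adjusted p = 0.00374), and LHCBM3 without HL replicate 3 (0.0443). After 60 min the number of members called lower was 6 (acetate, day 1), 4 (HSM, day 1), 7 (acetate, day 2) and 9 (HSM, day 2), against 24.5%, 28.5%, 36.3% and 32.1% of all genes.

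The exception at 15 min was LHCBM8 in HSM on day 1. It had 40.2, 43.4 and 23.2 CPM after 15 min of HL, against 14.1, 13.37 and 12.7 CPM in LL, with no overlap (log2 1.41 ± 0.41, adjusted p = 0.00278). Of all genes 34.7% were called higher in this comparison. LHCBM4 was close to the threshold in the same comparison, with 148, 164 and 142 CPM in HL and 77.7, 98.4 and 117 CPM in LL (log2 0.63 ± 0.30, adjusted p = 0.0575), and passed it without LL replicate 3 (adjusted p = 0.0425) or HL replicate 3 (0.0391). The sum of LHCBM4, LHCBM6 and LHCBM8 did not differ detectably (log2 0.28 ± 0.29, adjusted p = 0.387).

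After 60 min of HL on day 1, LHCBM1, LHCBM2, LHCBM4 and LHCBM6 were lower in both media, and LHCBM3 and LHCBM9 were called in acetate only. In HSM LHCBM9 did pass as lower with RLE scaling (log2 -0.74, adjusted p = 0.0397), with DESeq2 (0.0296) and in the fit of only the libraries compared (0.0294). The difference between media was not past the test for LHCBM3 (log2 -0.87 ± 0.67, adjusted p = 0.328) or LHCBM9 (-0.64 ± 0.43, 0.255). LHCBM2 had 661, 556 and 647 CPM after HL with acetate, against 2747, 2141 and 1450 CPM in LL (log2 -1.77 ± 0.26, adjusted p = 6.74e-07). In HSM LHCBM2 had 417, 390 and 413 CPM after HL, against 948, 1075 and 1068 CPM in LL (log2 -1.34 ± 0.26, adjusted p = 3.08e-05). All HL libraries of LHCBM2 were below all LL libraries of the same medium.

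LHCBM5 did not pass the test after 60 min of HL on day 1. In acetate it had 325, 316 and 311 CPM in HL, against 550, 436 and 377 CPM in LL, with no overlap (log2 -0.52 ± 0.25, adjusted p = 0.0779), and it passed as lower with DESeq2 (0.0469) and in the fit of only the libraries compared (0.00254). In HSM LHCBM5 had 160, 170 and 203 CPM in HL, against 154, 196 and 220 CPM in LL (log2 -0.10 ± 0.25, adjusted p = 0.745). The call of LHCBM1 depended on single libraries on day 1. In acetate it held without LL replicate 3 (log2 -0.92 ± 0.39 and adjusted p = 0.0462 with all libraries), and it was lost without any 1 of the 5 other libraries compared (adjusted p = 0.0709 to 0.181). In HSM it was lost without LL replicate 2 or 3 or HL replicate 1 or 3 (0.0517 to 0.116). LHCBM3 in acetate lost its call without the same 5 libraries (0.0788 to 0.189), and LHCBM6 in HSM without LL replicate 3 or HL replicate 1 (0.0716 and 0.0517). With scaling by library size alone LHCBM1 lost its call in acetate (0.162) and HSM (0.315), LHCBM3 in acetate (0.146) and LHCBM6 in HSM (0.425). In acetate LHCBM1 and LHCBM3 were also lost with limma-voom (0.0764 and 0.129) and with no filter (0.0553 and 0.0505). LHCBM8 passed as lower in acetate without LL replicate 3 (0.0194), and LHCBM9 in HSM without LL replicate 1 (0.0203).

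After 60 min of HL on day 2 in HSM, the log2 changes of the members ran over -3.50 (LHCBM4) to -1.38 (LHCBM5), with a median of -2.54 against 0.080 over all genes. LHCBM4 had 17.7, 12.27 and 13.24 CPM in HL, against 227, 71.8 and 189 CPM in LL (log2 -3.50 ± 0.33, adjusted p = 2.41e-11). LHCBM6, a type I protein, had 200, 131 and 175 CPM in HL, against 1698, 697 and 1554 CPM in LL (log2 -2.97 ± 0.31, adjusted p = 2.42e-10). LHCBM1 had 1602, 421 and 1151 CPM in HL, and its LL libraries, the lowest of which was replicate 2 with 3148 CPM, all lay above these (log2 -1.99 ± 0.40, adjusted p = 4.6e-05).

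For LHCBM5, LHCBM7 and LHCBM8 the HL and LL libraries of HSM overlapped, since LL replicate 2 was within the range of the HL libraries. All 9 calls held without replicate 2 of the 3 day 2 HSM conditions, and without any single library. The TMM factors were 1.198 to 1.348 in these HL libraries and 0.454 to 0.863 in the LL libraries. With scaling by library size alone LHCBM5 no longer passed the test (log2 -0.67, adjusted p = 0.0671), and the other 8 did.

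In acetate on day 2 the members parted. LHCBM5 had 160, 198 and 110 CPM after 60 min of HL, against 959, 987 and 1102 CPM in LL (log2 -2.70 ± 0.26, adjusted p = 2.12e-11). LHCBM6 had 781, 1008 and 507 CPM in HL, against 4118, 5432 and 5542 CPM in LL (log2 -2.72 ± 0.30, adjusted p = 5.65e-10). LHCBM1 and LHCBM7, in contrast, overlapped between HL and LL. LHCBM2, the type III partner of LHCBM7, had 1043, 1335 and 736 CPM in HL, against 2675, 3339 and 3191 CPM in LL (log2 -1.56 ± 0.26, adjusted p = 1.73e-06), and the sum of both genes was just outside the threshold (log2 -0.73 ± 0.34, adjusted p = 0.051).

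LHCBM1 had 14779, 11078 and 11508 CPM after 60 min of HL in acetate, against 8227, 12734 and 10969 CPM in LL (log2 0.23 ± 0.38, adjusted p = 0.598). LHCBM7 had 4862, 3802 and 3646 CPM in HL, against 4269, 6342 and 5826 CPM in LL (log2 -0.42 ± 0.62, adjusted p = 0.545). LHCBM7 passed as lower in the fit of only the libraries compared (log2 -0.56 ± 0.22, adjusted p = 0.0485). The 3 weakest of the 7 calls depended on single libraries. LHCBM8 (log2 -0.85 ± 0.39, adjusted p = 0.0483) was lost without any LL replicate or HL replicate 1 or 3 (adjusted p = 0.0556 to 0.146). LHCBM9 (-0.69 ± 0.29, 0.0303) was lost without LL replicate 2 or 3 or any HL replicate (0.0517 to 0.0895), and LHCBM3 (-1.16 ± 0.48, 0.0284) without LL replicate 2 or 3 or HL replicate 3 (0.0558 to 0.0975). With all libraries, LHCBM8 was also lost with DESeq2 (0.0503), limma-voom (0.0513), no filter (0.0537) and the culture number as a block (0.117). LHCBM3 was also lost with limma-voom (0.107).

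**Figure D2:**
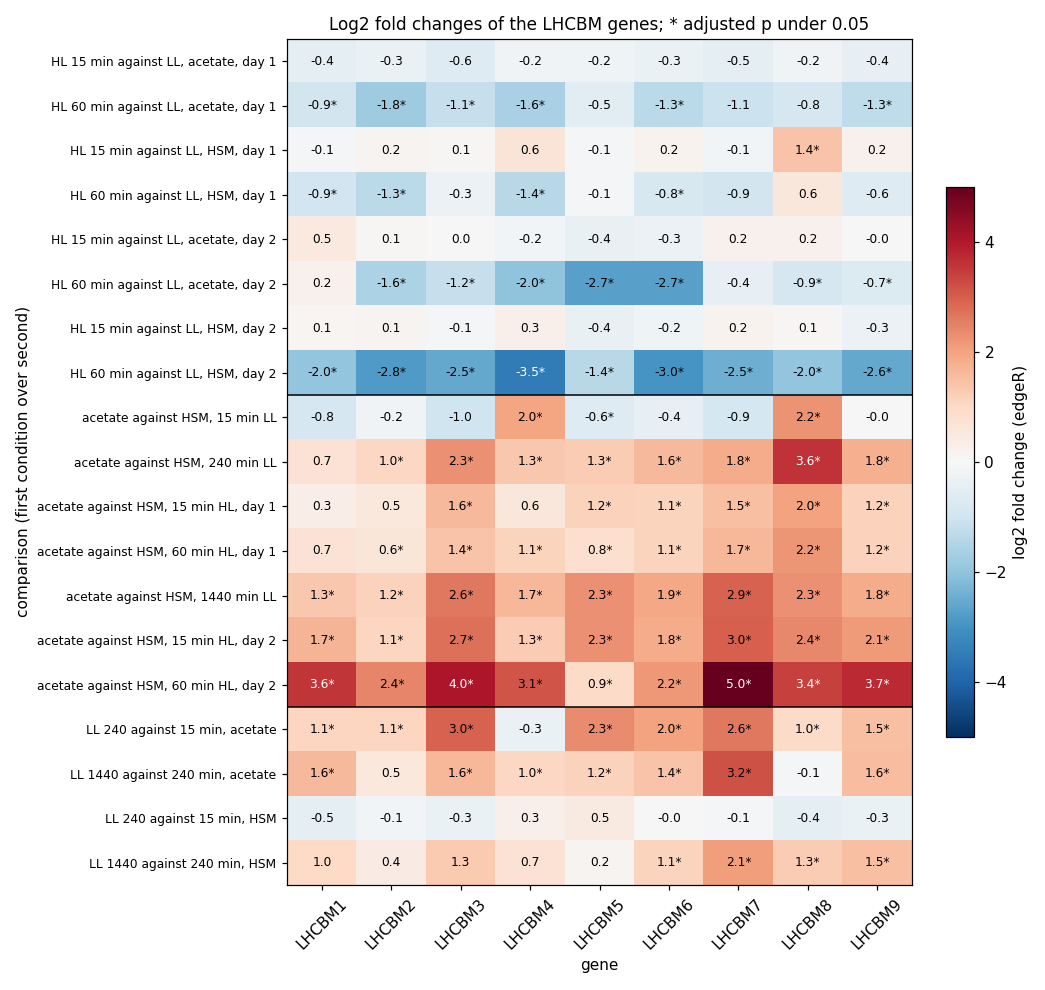
Log2 fold changes of the 9 LHCBM genes (columns) in the 8 comparisons of HL with LL, the 7 of acetate with HSM and the 4 between times in LL (rows, first condition over second). Red is higher and blue lower in the first condition, and an asterisk marks an adjusted p under 0.05. All 9 genes carry an asterisk for acetate against HSM at 1440 min in LL and at 15 and 60 min of HL on day 2, and for 60 min of HL in HSM on day 2.

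Whether the response to HL depended on acetate was tested as the HL change in acetate minus the HL change in HSM. On day 2 after 60 min it was positive for LHCBM1, LHCBM2, LHCBM4, LHCBM7 and LHCBM9 and negative for LHCBM5, where 31.9% of all genes were called positive and 29.4% negative. The largest difference was that of LHCBM1 (log2 2.21 ± 0.55, adjusted p = 0.000765), and LHCBM9 was at 1.89 ± 0.43 (0.000275).

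LHCBM5 went the other way, with a larger fall in acetate than in HSM (log2 -1.32 ± 0.35, adjusted p = 0.00158). After 60 min of HL it had 160, 198 and 110 CPM in acetate, against 97.9, 67.8 and 77 CPM in HSM, so that the media differed less than before the shift. LHCBM6 fell in both media, with no detectable difference between them (log2 0.25 ± 0.40, adjusted p = 0.608).

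The call of LHCBM7 (log2 2.03 ± 0.89, adjusted p = 0.0457) was lost without any 1 of 10 of the 12 libraries compared (0.0512 to 0.183) and is weak. LHCBM3 (1.38 ± 0.67, 0.0736) and LHCBM8 (1.13 ± 0.57, 0.0837) passed without LL replicate 2 of HSM (0.0219 for LHCBM3 and 0.012 for LHCBM8) or HL replicate 1 of HSM (0.0245 and 0.0433), and both passed without replicate 2 of all 3 day 2 HSM conditions (0.0212 and 0.0176), which left 8 members called. With scaling by library size alone the median of all genes in this contrast was -1.39 instead of 0.01, and only LHCBM5 passed the test (log2 -2.55, adjusted p = 1.21e-05). Relative to that median LHCBM1 was at 2.26, LHCBM7 at 2.21, LHCBM9 at 2.00, LHCBM4 at 1.67, LHCBM2 at 1.41 and LHCBM5 at -1.16. The sum of LHCBM2 and LHCBM7 differed between media (log2 1.97 ± 0.49, adjusted p = 0.000728), and that of LHCBM4, LHCBM6 and LHCBM8 did not detectably (0.44 ± 0.41, 0.353).

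On day 1 LHCBM8 was the 1 member whose HL change passed the test of a difference between media, a call that rested on the settings, with a negative difference after 15 min (log2 -1.60 ± 0.56, adjusted p = 0.0295, 15% of all genes negative) and after 60 min (-1.42 ± 0.56, 0.0481, 19.4% of all genes). The call after 15 min was lost without LL replicate 2 or 3 or HL replicate 2 of HSM, or LL replicate 1 or HL replicate 2 of acetate (adjusted p = 0.052 to 0.173), and that after 60 min without any 1 of 10 of the 12 libraries (0.0511 to 0.26). With limma-voom or the culture number as a block LHCBM8 passed at neither time (0.0698 to 0.0989), and it did not pass after 15 min with scaling by library size alone (0.125) or after 60 min with RLE scaling (0.0579) or DESeq2 (0.0727). For the sum of LHCBM4, LHCBM6 and LHCBM8 the difference was -0.58 ± 0.41 after 15 min (adjusted p = 0.292) and -0.49 ± 0.41 after 60 min (0.369). After 15 min of HL on day 2 no member passed, while 35.9% of all genes were called in either direction (0 members at an unadjusted p under 0.05, and 0 by DESeq2 or limma-voom).

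**Figure D3:**
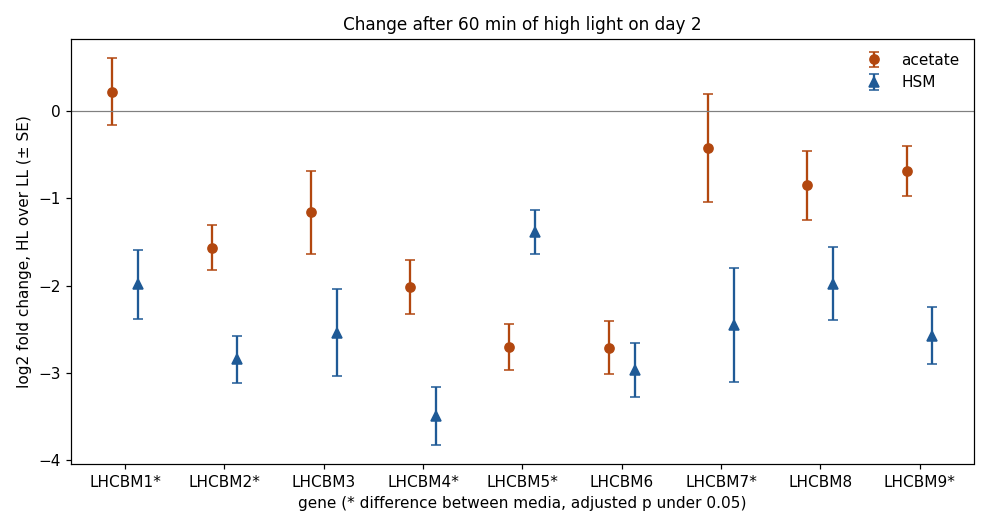
Log2 fold change of each LHCBM gene after 60 min of HL over LL on day 2, with its standard error, in acetate (circles) and in HSM (triangles). An asterisk marks genes whose change differed between media at an adjusted p under 0.05. LHCBM1 was at 0.23 in acetate and -1.99 in HSM, and LHCBM5 at -2.70 in acetate and -1.38 in HSM.

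In HL the members stayed higher with acetate than in HSM. On day 1 it was 6 members after 15 min (LHCBM3 and LHCBM5 to LHCBM9, against 33.8% of all genes) and 8 after 60 min (all but LHCBM1, against 22.9%). On day 2 it was all 9 after 15 min (37.8% of all genes) and all 9 after 60 min (36% of all genes). At both times no acetate library overlapped an HSM library for these 9, and the share of all genes without such overlap was not computed.

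The largest acetate difference in the family was that of LHCBM7 after 60 min of HL on day 2, with 4862, 3802 and 3646 CPM in acetate, against 223, 21.7 and 145 CPM in HSM (log2 4.98 ± 0.73, adjusted p = 1.92e-07). LHCBM3 had 2213, 2070 and 1517 CPM in acetate, against 186, 42.8 and 128 CPM in HSM (log2 4.02 ± 0.54, adjusted p = 2.56e-08). LHCBM9 had 55.8, 54.6 and 51.3 CPM in acetate, against 4.8, 2.41 and 4.84 CPM in HSM (log2 3.74 ± 0.33, adjusted p = 2.17e-12). LHCBM5 had the smallest difference, at log2 0.95 ± 0.25 (adjusted p = 0.001). The median over the members was 3.4, against -0.047 over all genes.

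Day 1 was less firm in HL. LHCBM7 (log2 1.49 ± 0.63 after 15 min, adjusted p = 0.038, and 1.66 ± 0.64 after 60 min, 0.0289) lost its call after 15 min without replicate 1 or 2 of HSM or 1 or 3 of acetate (0.0691 to 0.148), and after 60 min without replicate 1 or 3 of HSM or 3 of acetate (0.0513 to 0.116). LHCBM2 after 60 min (0.61 ± 0.26, 0.0448) was lost without any HSM replicate or acetate replicate 1 or 3 (0.0555 to 0.106), and LHCBM3 without HSM replicate 1 (0.0612). LHCBM2 after 15 min (0.54 ± 0.25, 0.064) passed without acetate replicate 2 (0.0353).

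The make-up of LHCBM counts also differed between conditions. The family took 4.21% ± 0.42 (SD, n = 3) of all counts in acetate at 1440 min in LL, against 0.66% ± 0.38 in HSM, and at 15 min 0.26% ± 0.044 in acetate against 0.39% ± 0.054 in HSM. Counts were not corrected for transcript length, so the share of a gene is compared between conditions only. Of the LHCBM counts, LHCBM7 made up 2.47% ± 0.36 at 15 min, 5.61% ± 1.05 at 240 min and 18.0% ± 0.29 at 1440 min in acetate in LL. LHCBM6 made up 3.70% ± 1.22 after 60 min of HL on day 2 in acetate, against 16.7% ± 0.94 in LL, while LHCBM1 made up 60.1% ± 3.77 in HL, against 35.0% ± 1.35 in LL.

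The type III pair shifted towards LHCBM7 in acetate. The ratio of LHCBM7 to LHCBM2 counts was 0.0959 ± 0.019 at 15 min, 0.273 ± 0.060 at 240 min and 1.77 ± 0.16 at 1440 min in LL (SD, n = 3 each), and 4.15 ± 1.14 after 60 min of HL on day 2. In HSM it was 0.158 ± 0.026, 0.161 ± 0.068 and 0.461 ± 0.275 at the 3 LL times and 0.607 ± 0.400 after 60 min of HL on day 2. Every acetate library of day 2 had a ratio of at least 1.60, and no HSM library passed 0.927. Replicate 2 of HSM on day 2 had ratios of 0.170, 0.138 and 0.159, close to the 15 min libraries of the same medium. An exact permutation test of 3 against 3 libraries cannot go below p = 0.1, so the ratio is given as a description.

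**Figure D4:**
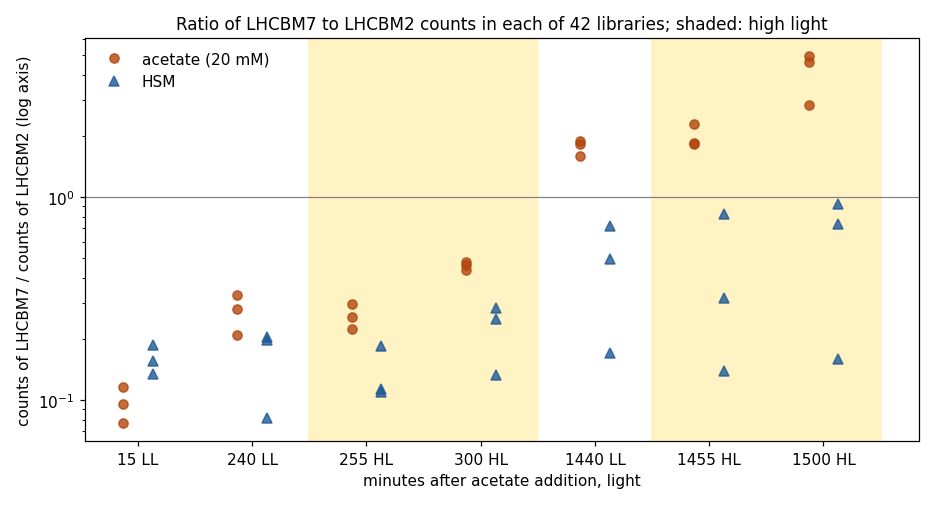
Counts of LHCBM7 divided by counts of LHCBM2 in each of the 42 libraries, on a log axis, against the minutes since acetate addition. Circles are acetate libraries and triangles HSM libraries, shading marks HL, and the line marks equal counts. The acetate libraries of day 2 lie between 1.60 and 4.95, and all others below 1.

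Across the 14 condition means, LHCBM7 had the widest range of log2 CPM (6.19) and LHCBM5 the narrowest (3.66). Every member but LHCBM7 was lowest in HSM after 60 min of HL on day 2, and LHCBM7 was lowest in HSM after 60 min of HL on day 1. The highest mean was in acetate at 1440 min in LL for LHCBM4, LHCBM5, LHCBM6 and LHCBM9 and in acetate after 15 min of HL on day 2 for the others. Libraries of the highest and the second highest condition overlapped for every member but LHCBM5, and the lowest condition stood clear of the next for LHCBM2, LHCBM4, LHCBM6 and LHCBM8. Most neighbours in between overlapped.

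Pearson's r between members over the 14 condition means, which share the same libraries and scaling, was highest for LHCBM3 with LHCBM9 (0.969), LHCBM7 with LHCBM9 (0.968) and LHCBM1 with LHCBM7 (0.967), and lowest for LHCBM1 with LHCBM8 (0.602) and LHCBM1 with LHCBM5 (0.614). The near-identical LHCBM2 and LHCBM7 were at 0.699. Outside the family, the gene most like LHCBM3 was LHCB5 (r = 0.987), which encodes the minor antenna protein CP26. For LHCBM6 it was Cre06.g278213 (r = 0.97), listed as ELI3 in the sources used here, and what it encodes was not checked. The other most alike genes, at r of 0.922 to 0.981, carried no symbol in the sources used here.

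Other antenna genes bear on the same comparisons. LHCB4 and LHCB5, the monomeric antenna proteins CP29 and CP26, were lower after 60 min of HL in acetate on both days and in HSM on day 2, as most LHCBM genes were. LHCB5 had a log2 change of -3.21 ± 0.54 in HSM on day 2 (adjusted p = 3.2e-06). LHCB7, a further antenna gene, was higher in 7 of the 8 HL comparisons, and in the eighth, 60 min in acetate on day 1, its log2 change was 0.087 ± 0.13 (adjusted p = 0.602).

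The quenching genes LHCSR1, LHCSR3.1, LHCSR3.2, PSBS1 and PSBS2 were all 5 higher in each of the 8 HL comparisons. STT7, the kinase that phosphorylates the LHCII antenna in state transitions, was lower with acetate than in HSM at 15 min in LL (log2 -2.10 ± 0.14, adjusted p = 3.98e-16), and was higher after 60 min of HL in acetate on day 2 (1.49 ± 0.13, 1.78e-12). PSBR, a subunit of photosystem II, was lower after 60 min of HL in both media on both days, with log2 changes of -2.25 ± 0.22 (HSM, day 2) to -0.62 ± 0.21 (acetate, day 2).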

How the data were processed

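Per the study's methods, the authors removed adapters (BBduk), mapped the reads to version 5 of the Phytozome reference (STAR 2.5.3) and obtained counts per gene with HTSeq-count on the reverse strand. The deposited values are raw counts. Reads that match a near-identical copy can be lost or split in such counts.

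The filter kept 13886 genes that reached 1 CPM in 9 or more libraries. Counts were scaled with TMM, and edgeR 4.0.16 (quasi-likelihood F test, R 4.3.3) was run on all 42 libraries with 1 coefficient for each condition. The p-values were adjusted by Benjamini and Hochberg's method across all genes tested, with a threshold of 0.05. The standard error of a log2 fold change was its size divided by the square root of F. Likeness used log2 CPM with a prior count of 2. The genes named were the 9 members, the listed antenna genes and, for each member, the 2 genes with the highest Pearson's r. Members and lists were chosen with earlier results of these data known. All 9 members were found in RefSeq (assembly version 5.5), used only for chromosome and gene order, since its build differs. LHCA and biogenesis genes on the list, and protein and promoter sequences, were not analysed here.

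No pair of replicates agreed within sampling noise (chi-square per degree of freedom of at least 6.22). Same-numbered replicates deviated together (every correlation over 0.1) only for 60 min of HL against LL in HSM on day 2 (r of 0.182 to 0.393). The culture numbers from the title tags matched there too, but that they mark paired cultures is not stated. Where only 2 culture numbers were shared, both correlations passed 0.1 for 240 against 15 min in HSM (0.414 and 0.44) and 15 min of HL in acetate on day 1 (0.104 and 0.244). Both were below 0 for 15 min of HL in HSM on day 2 (-0.231 and -0.17), 60 min of HL in acetate on day 2 (-0.169 and -0.000269) and acetate against HSM at 240 min (-0.122 and -0.0372). DESeq2 1.42.0, limma-voom (limma 3.58.1), RLE, library size only, no filter, replicate and culture blocks, fits of only the libraries compared, leaving out each library and summing near-identical genes were run as alternatives. The fit was tested on simulated data. Figures were drawn with matplotlib 3.10.9.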

Additional observations from a re-analysis of the deposited data

Results flagged for a closer look

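For 7 LHCBM genes the response to HL differed between acetate and HSM by a test of the difference itself (log2 change in acetate minus log2 change in HSM). For LHCBM8 it was -1.60 after 15 min and -1.42 after 60 min on day 1, where 15% and 19.4% of all genes were called negative. After 60 min on day 2 it was 2.21 for LHCBM1, 1.29 for LHCBM2, 1.48 for LHCBM4, -1.32 for LHCBM5, 2.03 for LHCBM7 and 1.89 for LHCBM9. There 31.9% of all genes were called positive and 29.4% negative, so the number of members called was near the background. The calls of LHCBM8 were lost at both times with limma-voom or the culture block, and those of LHCBM7 without any 1 of 10 of the 12 libraries compared. The sum of LHCBM4, LHCBM6 and LHCBM8 passed in none of these 3 comparisons (-0.58, -0.49 and 0.44, adjusted p = 0.292, 0.369 and 0.353). Scaling by library size alone left LHCBM5, as negative, the 1 member called on day 2, where it called 797 of 13886 genes positive and 9412 negative. No group was large enough for a search for single outlying libraries.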

How the results depend on the processing

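Of the 3310 log2 values of single members under the alternatives, 3099 kept their direction and their side of the threshold, 138 lost the call, 70 gained one and 3 turned. The last were set by construction, since LHCBM6 makes up most of its sum: the sum with LHCBM4 and LHCBM6 gave LHCBM8 -0.84 for 60 min of HL in HSM on day 1 and 1.304 for 1440 against 240 min in acetate, and LHCBM4 1.40 for 240 against 15 min in acetate. The number of members called moved by over 1.5 times as follows, and the causes were not tested. For the HL difference between media on day 1, RLE (60 min), DESeq2 (60 min), library size only (15 min), and limma-voom and the culture block (both times) called 0 members in place of 1. RLE, DESeq2 and library size only called 2379, 2543 and 794 of 13886 genes negative there. For limma-voom it was 2060 (15 min) and 2835 (60 min), and for the culture block 2020 and 2742. Library size only called 1 in that of 60 min on day 2, 1 for 15 min of HL in acetate on day 2 and 2 for 1440 against 240 min in HSM, as did limma-voom (2). DESeq2 called 2 for 15 min of HL in HSM on day 1 (4929 of all genes higher and 4851 lower). The culture block called 5 for acetate against HSM at 15 min (4805 of all genes higher and 5418 lower). Fits of only the libraries compared called 7 there, with LHCBM4 and LHCBM8 as higher and the others as lower, while 5083 of all 13886 genes were higher and 5468 lower. They called 7 for 60 min of HL in HSM on day 1, with LHCBM8 as higher (log2 0.51, adjusted p = 0.0207) and the others as lower. Over all genes it was 4496 higher and 4265 lower. For 15 min of HL these fits called 2 in HSM on day 1 and 1 in acetate on each day, and 0 for 1440 against 240 min in HSM. Over all genes 4480 were higher and 4716 lower in HSM on day 1. In acetate it was 4200 and 4730 on day 1 and 4387 and 4852 on day 2, and for 1440 against 240 min in HSM 638 and 381.

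Without single libraries the counts were 2 to 5 (acetate against HSM at 15 min), 1 to 2 and 2 to 5 (15 and 60 min of HL in HSM on day 1), 5 to 8 (acetate against HSM in 60 min of HL on day 1), 4 to 6 (60 min of HL in acetate on day 2), 0 to 1 (15 min of HL in HSM on day 2), 2 to 6 (1440 against 240 min in HSM) and 0 to 1 (HL difference between media on day 1, both times). Leaving out the 3 HSM libraries of replicate 2 on day 2, chosen after seeing the data, gave 8 members for 1440 against 240 min in HSM, 8 for the HL difference between media after 60 min on day 2 and 1 for 15 min of HL in HSM. Calls over all genes were not counted in the fits that left out libraries. The replicate block changed none of the 23 counts and none of the 207 calls, and 9 members were called for 60 min of HL in HSM on day 2 with the pairing too. RLE shifted the median of all genes by -0.10 to 0.09, and library size only by -1.40 to 0.99. Scaling by library size alone moved 68 of the 126 condition means by over 1 SD. The genes named as most alike were at Spearman rho of 0.864 to 0.987 over the same means and Pearson r of 0.821 to 0.982 over the 42 libraries. Shares per transcript length were not run. LHCBM9 and LHCBM8 had the lowest counts and the widest counting error.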
